A study of Oryza sativa with 18 samples.

Results

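Over the growth of a rice coleoptile in air, DNA methylation was lower than in the dry embryo in nearly all of the regions that the authors had listed for the dry seed. All 5908 regions of that table were followed, of 8941 regions in the 3 deposited tables, in the 3 libraries of 4 d air coleoptiles and the 3 libraries of dry seed embryos, which are 6 of the 18 libraries of the series. The members were chosen by their place in the authors' table and not by the level at 4 d. By its name, the table compares the dry seed with embryos after 24 h in air or in nitrogen. The authors' deposited table lists a dry seed library as high in 5907 regions and as low in 89. It lists a 24 h air library as low in 5800 regions and as high in 37, and a 4 d air library as high or low in 0. The dry seed and 24 h values therefore entered the choice of the regions and the 4 d air values did not. The counts below describe regions picked mostly for a high dry seed level and a low level at 24 h.

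The series is a MethylC-seq study, in which bisulfite-treated DNA is sequenced so that methylated cytosines can be told from unmethylated ones, of germinating rice with and without oxygen. Both groups were wild type Oryza sativa of the cultivar Amaroo. The 4 d air group was coleoptiles from de-hulled, sterilised seeds kept for 4 d at 30 °C in the dark in a buffered medium bubbled with air, with the primary leaf taken away. The dry seed group was embryos cut out of de-hulled dry seeds at 0 h and frozen. A further 3 libraries, of embryos after 24 h in the air-bubbled medium at 30 °C, are used where 4 d is set against 24 h. Each library was made from 600 ng of DNA with 0.5% of lambda DNA, and the labels do not say how many embryos or coleoptiles were pooled or whether the 3 libraries of a group came from separate cultures, so the p-values measure only library-to-library spread, which may be technical. Organ (a whole embryo or a coleoptile), time and the wetting of the seed change together between the groups and cannot be told apart. The files hold no expression values, so the tissues were not checked against markers. No genome build is named in the labels or headers, and positions are given as the table has them, with no gene or sequence assigned.

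The coleoptile is the sheath that covers the first leaf of a grass seedling, and it grows mostly by elongation of cells already present in the embryo. Plants methylate cytosine in several sequence contexts with different enzymes: the MET1 class copies CG methylation at replication, chromomethylases maintain non-CG methylation, and DRM2 methylates new sites guided by small RNAs. Methylation is lost either when copying does not keep up with replication or when DNA glycosylases of the ROS1 and DEMETER type cut methylated cytosine out. In Arabidopsis, non-CG methylation is known to accumulate in the maturing embryo and to decline on germination. The column names of the table carry the context CG and the names of the sets of regions carry CNN, so the context of the cytosines counted here is not settled.

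The methylation level of a region is the deposited percent of methylated reads, used where a library had 10 or more reads. Total reads over the regions were 865237, 897013 and 955171 in the 4 d air libraries, against 2150760, 1867294 and 1839145 in the dry seed libraries. The 4 d air libraries had between 61 and 75 regions under 10 reads, and the dry seed libraries had 0 or 1. These sums cover the regions and are not the depth of the libraries. Read numbers in the dry seed rose with region length (Spearman 0.871 over the regions), and the headers do not say if a read over several cytosines counted once or more often.

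Averaged over the regions, the level was 23.5%, 22.7% and 23.4% in the 4 d air libraries, against 70.2%, 66.9% and 68.2% in the dry seed libraries. Every 4 d air library lay far below every dry seed library. The group means were 23.2 ± 0.426% in 4 d air and 68.4 ± 1.66% in the dry seed (SD, n = 3 each), a difference of -45.2 points. The exact two-sided permutation test over the libraries gave p = 0.1, the smallest that 3 against 3 allows, and 0.2 adjusted over the 4 such tests made here.

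Region by region, the fall covered nearly the whole table. A quasi-binomial logistic model, in which all 6 groups of the table shared the spread of a region, called 5741 of 5869 tested regions lower in 4 d air and 0 higher, at a Benjamini-Hochberg adjusted p under 0.05 and a difference of 10 points or more. The called share was 97.8% of the regions tested for lower and 0% for higher. At an unadjusted p under 0.05 the same model had 5767 regions, of which 0 had a higher mean in 4 d air, and limma also called 0 higher. The mean level was lower in 4 d air in 5889 regions and higher in 15. Among the 5741 regions with 10 reads in all 6 libraries, the 3 values of 4 d air lay below the 3 of the dry seed in 5554, or 96.7%. The opposite order held in 0 regions (0%), and the groups overlapped in 187.

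The size of the fall varied widely. The median difference was -45.2 points, with quartiles of -56.2 and -34.4 and with 90% of regions between -72.3 and -19.3. A fall of 20 points or more was seen in 5581 regions, of 50 points or more in 2254, of 70 points or more in 398 and of 90 points or more in 15. The shapes of the distributions differed too. The median of the region means was 19.5% (quartiles 7.70% and 34.6%) in 4 d air, against 69.5% (58.8% and 79.0%) in the dry seed. In the plot of region levels, 4 d air regions crowd towards 0, while the dry seed forms a broad hump.

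Many regions ended nearly unmethylated and few kept a high level. A level under 10% was found in 31.2%, 32.0% and 31.9% of regions in the 4 d air libraries, against 0%, 0.0846% and 0.0677% in the dry seed libraries. A level of 80% or more was found in 0.943%, 0.838% and 1.15% of regions in 4 d air, against 28.9%, 22.7% and 25.98% in the dry seed. The 2 sets of libraries did not overlap in either share. In 86 regions all 3 of the 4 d air libraries were at 0%. The median region kept 29.4% of its dry seed level, with quartiles of 12.7% and 48.2%.

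**Figure D1:**
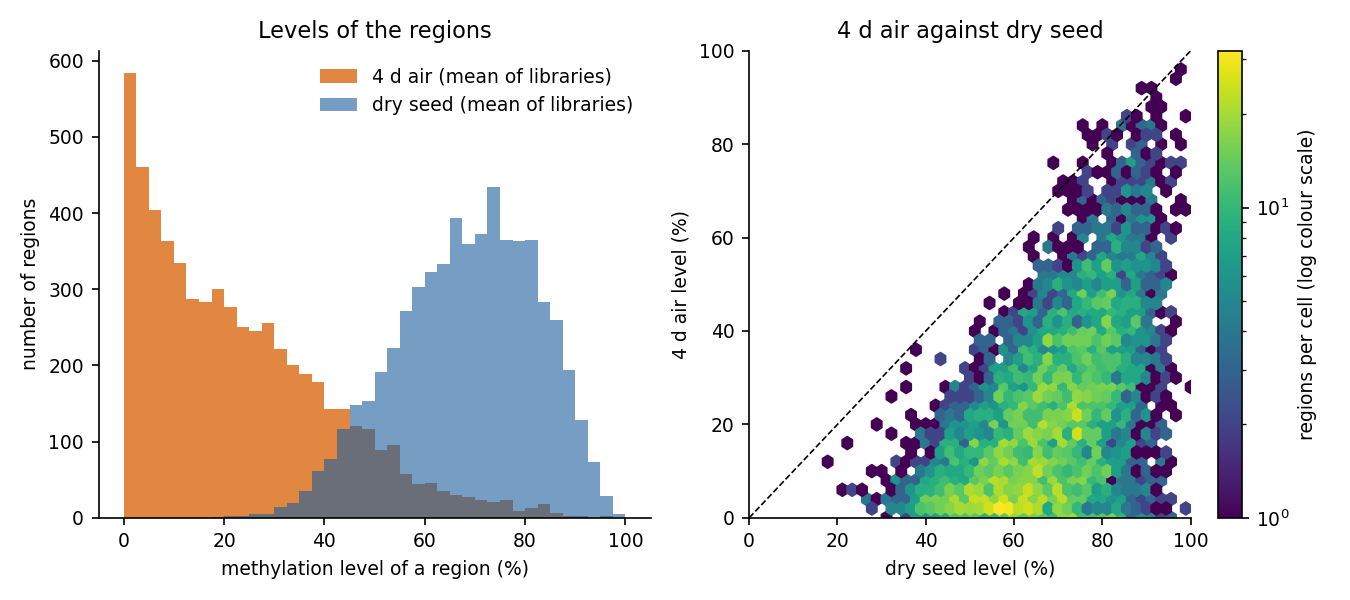
Left, number of regions by methylation level (%, mean of the libraries) in 4 d air (orange) and dry seed (blue); right, 4 d air level against dry seed level with the regions per cell on a log colour scale and a dashed line of equal levels. The 4 d air regions crowd at low levels with a median of 19.5%, the dry seed regions have a median of 69.5%, and nearly all cells lie below the line.

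Regions that started higher ended higher. The median 4 d air level was 6.22% for regions under 50% in the dry seed and 11.4% for those between 50 and 60%. It was 18.2% for a dry seed level between 60 and 70%, and 24.5% for one between 70 and 80%. Regions between 80 and 90% in the dry seed ended at 36.0%, and the 235 regions at 90% or more ended at 43.4%. The order was the same in each of the 3 libraries of 4 d air, while the order in the dry seed is set by the bins. The mean level of the regions at 90% or more was 42.8%, 41.9% and 46.03% in 4 d air, against 92.8%, 92.5% and 92.8% in the dry seed. For the 638 regions under 50% it was 8.90%, 8.13% and 8.13% in 4 d air, against 45.9%, 41.2% and 43.1% in the dry seed.

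As a share of the start, the highest regions kept most. The regions were picked for a fall between the dry seed and 24 h, which left a low start little room to keep a large share. The median share kept was 14.5% under 50%, 20.5% between 50 and 60%, 33.1% between 70 and 80%, 42.8% between 80 and 90% and 47.1% at 90% or more. Of the 235 regions that began highest, 92 were at 50% or more after 4 d, or 39.5%. The count was 0 for the 638 that began lowest, which would have had to rise to reach 50%. Yet levels under 5% in 4 d air were found at every start, in 21 of those 235 regions and in 263 of the 638. The spread of outcomes was widest at the top, where the room to fall was also largest. The 4 d air quartiles were 21.0% and 62.1% at 90% or more, against 2.92% and 12.4% under 50%. Of the tested regions, 98.9% were called lower in the lowest bin and 93.9% in the highest.

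In points, the fall varied less with the start. The median difference was -36.0 points under 50%, -44.2 between 50 and 60%, -46.8 between 60 and 70%, -50.0 between 70 and 80%, -48.0 between 80 and 90% and -48.6 at 90% or more. Start and difference share the dry seed libraries, so they are not independent and no test was made. With each dry seed library used in turn to set the bins and only the other 2 used for the fall, the medians ran from -42.8 to -37.5 points under 50% and from -48.2 to -44.5 points at 90% or more. The mean fall at 90% or more was larger than that under 50% by 14.1 points (a difference of -14.1 between the bins) with all 3 libraries, and the value shrank to -9.35, -0.750 and -2.30 with the bins set by dry seed library 1, 2 and 3. Between 60 and 90% the medians lay within -48.2 to -43.8 points whichever library set the bins. The plot by starting level shows both measures.

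**Figure D2:**
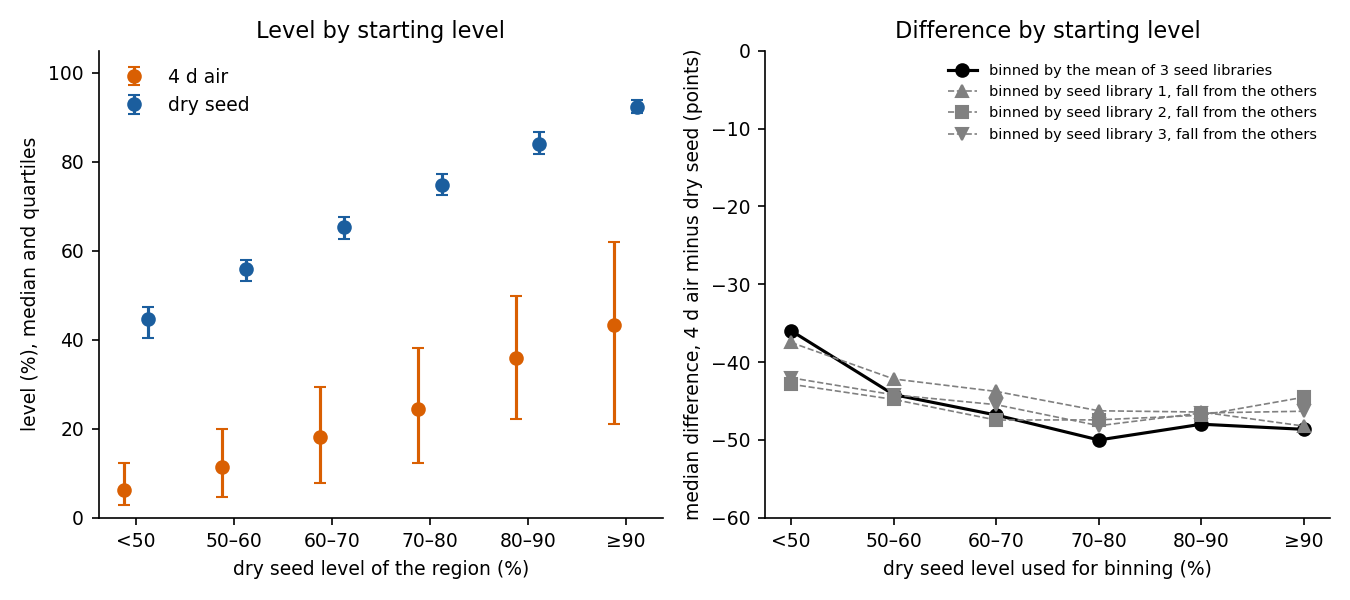
Left, median level (%) with quartiles over regions in 4 d air (orange) and dry seed (blue) by dry seed level; right, median difference (points, 4 d air minus dry seed) with bins set by the mean of all dry seed libraries (black) or by 1 library with the fall taken from the others (grey). The level at 4 d climbs with the start, from 6.22% to 43.4%, and the difference with bins from all libraries is -50.0, -48.0 and -48.6 points in the 3 highest bins.

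The reads behind the levels changed in a lopsided way. Per region, the median of the mean number of methylated reads was 20.96 in 4 d air and 175.0 in the dry seed, while unmethylated reads were 92.1 in 4 d air and 78.3 in the dry seed. The median log2 ratio of 4 d air to dry seed, with 0.5 added, was -2.98 for methylated reads, 0.26 for unmethylated reads and -1.03 for all reads. Total reads were lower in 4 d air in 5887 regions. Unmethylated reads were higher in 4 d air in 4394 regions. Summed over the regions, unmethylated reads were 633022, 663646 and 700533 in 4 d air, against 579115, 560629 and 527172 in the dry seed. Methylated reads were 232215, 233367 and 254638 in 4 d air, against a rounded 1.57e+06, 1.31e+06 and 1.31e+06 in the dry seed.

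The drop in total reads moved with the fall and with the starting level. Across the regions, the log2 read ratio had a Spearman correlation of 0.458 with the difference and -0.617 with the dry seed level. With the 4 d air level it was -0.0638. The read ratio and the difference share the dry seed libraries, so they are not independent. Among the 1473 regions whose reads fell most (a log2 ratio under -1.5), the median difference was -56.2 points, with levels of 22.3% in 4 d air and 80.9% in the dry seed. Among the 755 regions whose reads fell least (a log2 ratio of -0.5 or more), it was -34.9 points, with 15.9% in 4 d air and 54.7% in the dry seed. Whole-library depth is unknown, and the part of read number in the result was not tested. The called share was 97.9% and 97.5% in those groups of regions.

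**Figure D3:**
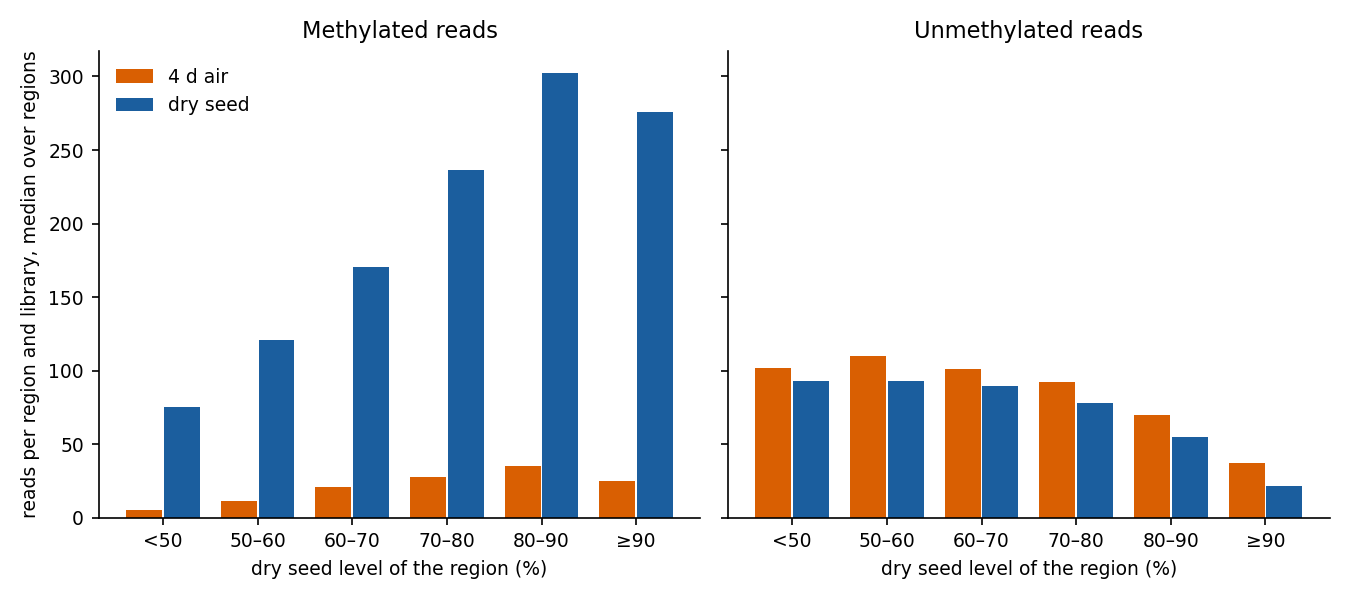
Median over regions of the mean methylated reads (left) and unmethylated reads (right) per region and library, by dry seed level (%), for 4 d air (orange) and dry seed (blue). At 90% or more, methylated reads were 24.95 in 4 d air and 275.7 in the dry seed, while unmethylated reads were 37.5 in 4 d air and 21.8 in the dry seed.

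Over all regions, the median fall in points was nearly the same in each class of region length. The regions were 3 to 393 bp long, with a median of 58 bp. The median difference was -45.6 points for the 1064 regions under 25 bp, -45.1 for those of 25 to 49 bp, -44.6 for those of 50 to 99 bp and -45.8 for the 988 regions of 100 bp or more. The called share ran from 97.0% in the shortest to 98.9% in the longest. Across the regions, length and difference had a Spearman correlation of 0.00083.

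Longer regions lay a little higher in both groups. The mean level of regions of 100 bp or more minus that of regions under 25 bp was 5.80, 5.21 and 5.76 points in the 4 d air libraries, against 5.85, 5.68 and 6.15 points in the dry seed libraries. The ranges overlapped. The means of this contrast were 5.59 ± 0.327 points in 4 d air and 5.89 ± 0.239 points in the dry seed (SD, n = 3 each), a difference of -0.303 (exact two-sided permutation test, p = 0.4, also 0.4 adjusted). In regions that started between 70 and 90%, the fall was larger in the shortest than in the longest, at a median of -53.2 points under 25 bp and -49.3 at 100 bp or more. There the difference of the contrast turned to 1.45 points with no overlap between the groups (exact permutation test, p = 0.1, the smallest possible, not adjusted), in a band of starts set by the same dry seed libraries.

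How densely a region was packed with differentially methylated sites, which the authors counted between the dry seed and 24 h, went with a larger fall, while the dry seed level had no trend with it (Spearman 0.00604 over the regions, against -0.390 for the difference). This comparison was added after the data had been seen. The site number comes from the contrast of dry seed with 24 h that picked the regions, so the values are a description and carry no test. The median level with fewer than 10 sites per 100 bp was 32.4% in 4 d air and 71.3% in the dry seed, over 1470 regions. With 20 sites or more per 100 bp it was 13.6% in 4 d air and 70.8% in the dry seed, over 2004 regions. The median difference was -36.0, -43.1, -48.6 and -51.8 points over the 4 classes of density from low to high. A level of 50% or more at 4 d was found in 18.4% of the sparsest regions and in 5.25% of the densest.

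The mean level of the densest minus that of the sparsest regions averaged -15.03 ± 0.491 points in 4 d air and 0.153 ± 1.02 points in the dry seed (SD, n = 3 each), a difference of -15.2 points. By number of sites, regions with 20 or more against those under 5 gave -12.0, -11.4 and -10.7 points in the 4 d air libraries, against 6.71, 4.23 and 5.66 points in the dry seed libraries, which do not overlap. That difference was -16.9 points. Among regions that started between 70 and 90%, the median difference ran from -37.1 points in the sparsest to -57.2 in the densest.

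**Figure D4:**
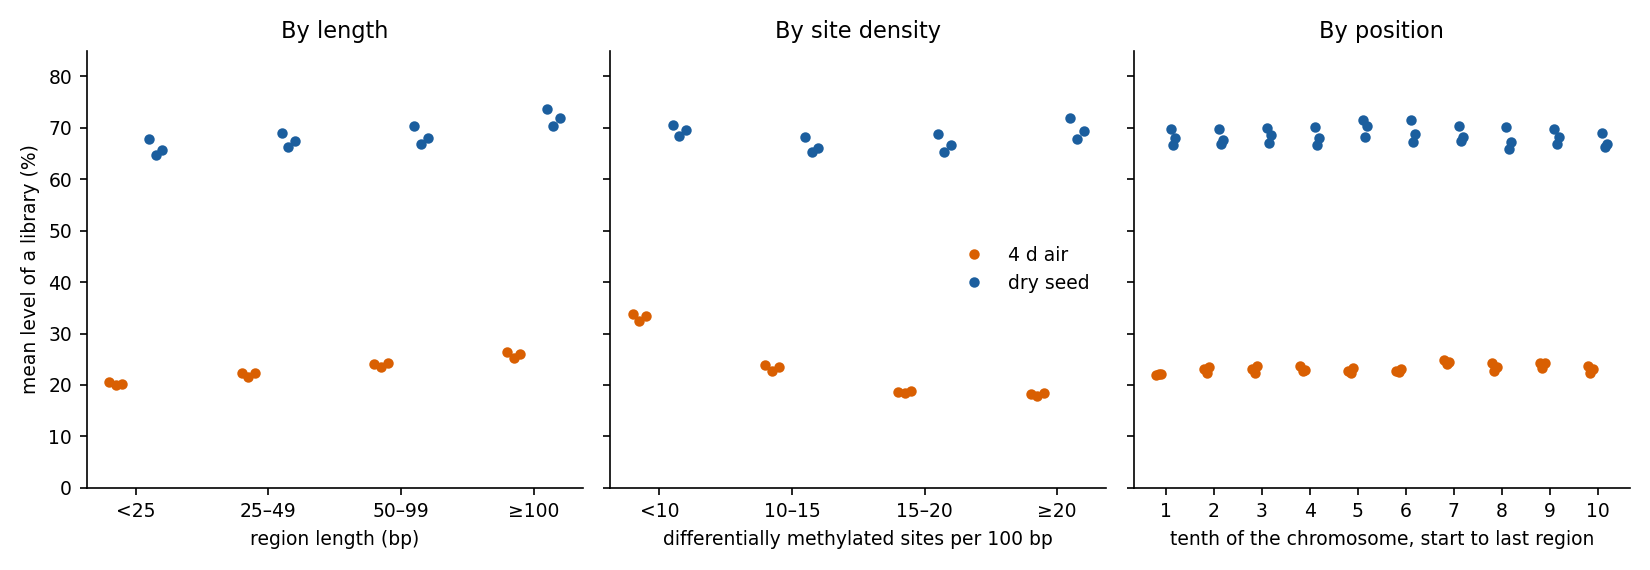
Mean methylation level (%) of each library, 1 point per library, for 4 d air (orange) and dry seed (blue), by region length (bp), by differentially methylated sites per 100 bp and by chromosome segment of 10% each. The gap between the groups changes little with length and position, and from the sparsest to the densest regions the 4 d air level drops while the dry seed libraries lie between 65.2% and 71.9%.

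Position along the chromosome made almost no difference. Chromosome ends were taken at the last region of the table, and the 7 regions on a sequence named S were left out here. The median difference was -45.2 points in the outer 20% at each end of a chromosome (2354 regions) and -45.2 in the rest (3547 regions), and 98.2% and 97.6% were called. Outer minus rest was -0.408, -0.317 and -0.243 points in the 4 d air libraries, against -0.950, -0.363 and -0.706 points in the dry seed libraries. These overlap, and the difference of 0.351 points had p = 0.2 (0.267 adjusted) in the exact permutation test. Over segments of 10% of a chromosome the median difference stayed between -46.4 and -44.0 points.

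The fall was of much the same size on each of the 12 chromosomes, although the number of regions varied. The number of regions ran from 267 on chromosome 12 to 752 on chromosome 1, and their density from 9.71 per Mb on chromosome 12 to 18.4 per Mb on chromosome 11. The median difference ran from -46.8 points on chromosome 11 to -43.7 on chromosome 1, and the called share from 96.8% on chromosome 6 to 98.96% on chromosome 4. Chromosome 11 had the lowest median 4 d air level, 17.9%, and chromosome 4 the highest, 21.7%. On the sequence named S, 6 of 7 regions were called, with medians of 3.19% in 4 d air and 74.9% in the dry seed.

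The 8 largest falls among regions read 10 times or more in all 6 libraries were on chromosomes 2, 4, 6, 7, 10 and 11. They were between 15 and 104 bp long, and in all 8 the groups were far apart, as the plot of named regions shows. These regions and the largest falls per chromosome were ranked by the same difference in the same libraries. Their gaps and p-values therefore follow from the choice and are given as description. A 44 bp region on chromosome 11 (24548583 to 24548626) had 0%, 3.99% and 0% in 4 d air, against 95.5%, 99.8% and 99.8% in the dry seed, a difference of -97.0 points (quasi-binomial model, adjusted p = 6.82e-07). It was read 22 to 27 times per library in 4 d air and 58 to 187 times in the dry seed, so its 4 d air zeros rest on few reads. A 30 bp region on chromosome 10 (14568016 to 14568045) was at 0% in all 3 of the 4 d air libraries, against 97.8%, 97.2% and 93.9% in the dry seed, with only 11 to 14 reads per library in 4 d air.

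Regions with more reads per library did the same. On chromosome 4, a 104 bp region (11739307 to 11739410) had 1.58%, 0% and 0% in 4 d air, against 89.3%, 91.0% and 90.2% in the dry seed, with 38 to 97 reads in 4 d air and 338 to 361 in the dry seed. On chromosome 2, an 88 bp region (12222795 to 12222882) holding 30 sites had 11.5%, 3.90% and 0% in 4 d air, against 95.004%, 97.4% and 88.1% in the dry seed. It had 36 to 128 reads in 4 d air and 664 to 963 in the dry seed. The groups do not overlap in either region, and both regions were called (adjusted p = 4.29e-07 and 3.69e-05, quasi-binomial model). Of the largest falls per chromosome, a 162 bp region on chromosome 3 (9661607 to 9661768) with 46 sites had the most reads. It had 179 to 273 reads in 4 d air and 921 to 1033 in the dry seed. Its levels were 0.731%, 3.36% and 0.558% in 4 d air, against 87.8%, 90.4% and 84.8% in the dry seed. With the same minimum of reads, the largest falls of the 12 chromosomes lay between -97.0 and -83.5 points.

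The remaining 4 of the 8 largest falls were on chromosomes 6, 7 and 10. Chromosome 6 (6665185 to 6665216) had 0%, 2.56% and 0% in 4 d air, against 96.5%, 93.7% and 90.5% in the dry seed. Chromosome 7 (4743243 to 4743268) was at 0% in all 3 of the 4 d air libraries, against 89.5%, 94.1% and 88.0% in the dry seed. The 49 bp region on chromosome 10 (268264 to 268312) was likewise at 0% in 4 d air, against 89.1%, 88.4% and 95.9% in the dry seed. A 15 bp region on the same chromosome (16528687 to 16528701) had 0%, 9.07% and 0% in 4 d air, against 98.3%, 90.1% and 88.4% in the dry seed. In 4 d air the chromosome 6 region had 33 to 40 reads per library and the chromosome 7 region only 10 to 17. The 49 bp region had 20 to 41 reads and the 15 bp region only 11 to 24, so these zeros also rest on few reads. The 15 bp region had the highest mean level of the 8 in embryos after 24 h in air, at 74.9%, 27.7% and 33.3% in the libraries. Its 4 d value was not called different from 24 h (difference -42.3 points, adjusted p = 0.192, quasi-binomial model).

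The 3 longest regions fell by unequal amounts. The 393 bp region on chromosome 5 (17879262 to 17879654) had 29.8%, 26.5% and 29.9% in 4 d air, against 60.03%, 48.2% and 65.0% in the dry seed (difference -29.0). The 372 bp region on chromosome 3 (36413398 to 36413769), which held the most sites of any region at 90, had 24.6%, 20.2% and 24.9% in 4 d air, against 82.8%, 81.3% and 76.6% in the dry seed (difference -57.0). The 364 bp region on chromosome 11 (27508403 to 27508766) had 13.6%, 12.8% and 14.4% in 4 d air, against 62.2%, 62.7% and 62.6% in the dry seed (difference -48.9). In none of these 3 did the groups overlap, and all 3 were called (quasi-binomial model, adjusted p of at most 3.68e-06). With the spread from the compared groups alone, the same model gave larger adjusted p values of 0.00857, 0.00158 and 0.00141, in the same order.

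A few regions with a high start differed little in mean level between the groups. Of the 5 regions with the smallest difference among those at 80% or more in the dry seed, a 66 bp region on chromosome 11 (10747885 to 10747950) had 89.1%, 95.9% and 89.1% in 4 d air, against 83.1%, 94.5% and 96.3% in the dry seed. A 119 bp region on chromosome 12 (1080519 to 1080637) had 93.0%, 82.3% and 78.4% in 4 d air, against 68.1%, 91.0% and 93.2% in the dry seed. The others, on chromosome 2 (8894883 to 8894926), 6 (24514461 to 24514498) and 4 (7093458 to 7093497), differed by -0.157, 0.180 and 0.219 points. In all 5 the groups overlapped and dry seed library 1 was the lowest of its group. Leaving out 1 library moved these 5 differences to values between -9.13 and 10.7 points. Without dry seed library 1 all 5 were lower in 4 d air, by under 10 points, with an adjusted p of 0.0236 on chromosome 11 and 0.0289 on chromosome 12 in the quasi-binomial model. A difference near 0 does not show that the levels were equal.

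**Figure D5:**
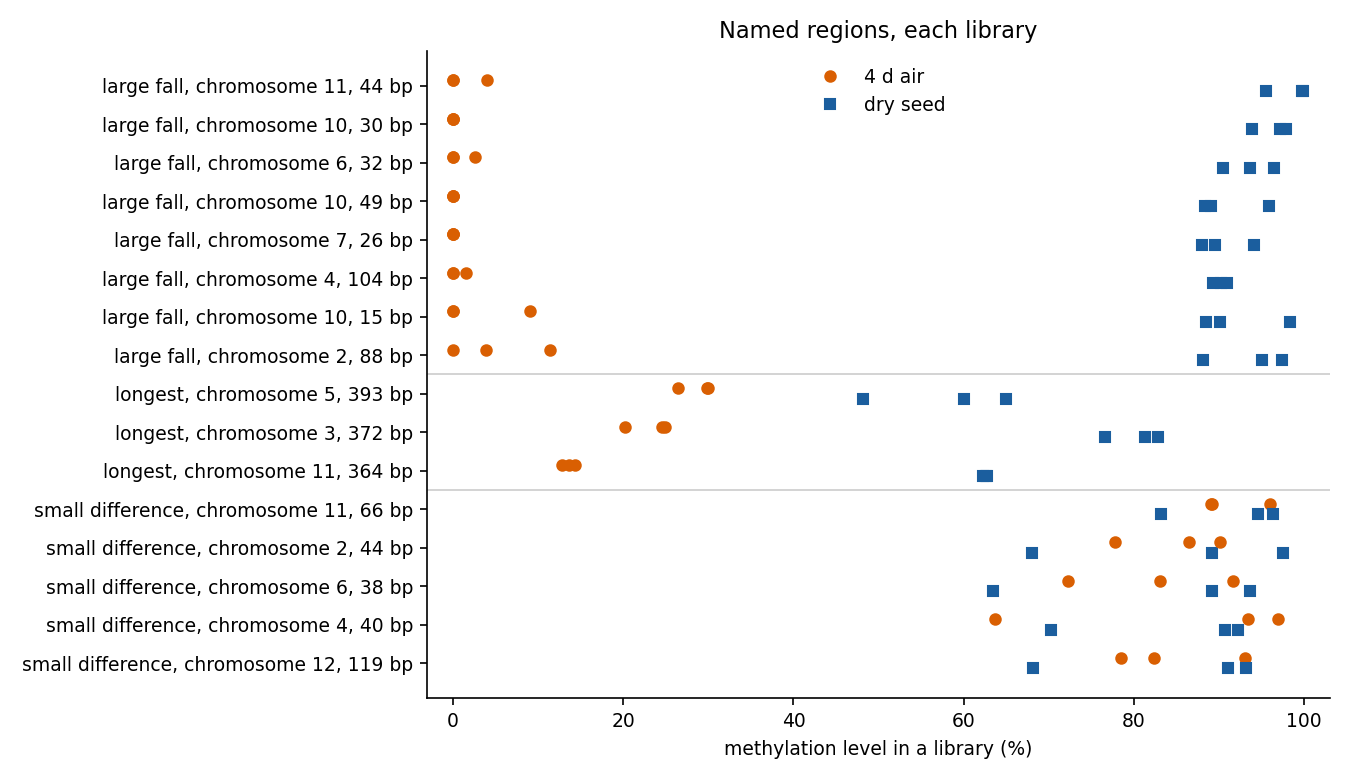
Methylation level (%) in each library of 4 d air (orange circles) and dry seed (blue squares) for the 8 largest falls, the 3 longest regions and the 5 regions with the smallest difference from a dry seed level of 80% or more. The largest falls end at 11.5% or lower, and in the 5 regions at the bottom the groups overlap.

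Across the whole table, 546 regions ended at 50% or more, and the highest of these differed little at 4 d from the dry seed. In the 44 regions at 80% or more in 4 d air, the median dry seed level was 89.0% and the median difference -3.005 points, and 5 were called lower (11.4% of them). In the same 44 regions the median after 24 h in air was 73.4%. These groups of regions were set by the 4 d air level itself and so carry no test. No region rose by 10 points or more. The largest difference upwards, picked out after its values were seen, was 8.28 points in a 48 bp region on chromosome 7 (3917525 to 3917572), with 93.1%, 63.4% and 96.5% in 4 d air, against 47.7%, 91.7% and 88.8% in the dry seed (adjusted p = 0.616, quasi-binomial model), and the groups overlapped.

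The 128 tested regions that were not called differed from the 5741 called ones mainly in where they ended. Their median level was 71.5% in 4 d air and 78.7% in the dry seed, while the called regions had 19.1% in 4 d air and 69.1% in the dry seed. Of the 128, 91 differed by under 10 points and 37 were lower by 10 points or more. Their libraries spread more, with a median SD of 6.65 points in 4 d air and 11.4 in the dry seed, against 4.14 and 6.67 in the called regions. A small difference or a wide spread is what keeps a region from being called, so these values partly restate the rule. The 39 regions that could not be tested were short, with a median of 13 bp, and were read a median of 9.33 times in 4 d air and 56 times in the dry seed.

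Embryos after 24 h in air were already low in these regions, which the authors had picked in part for that. Only the step between 24 h and 4 d is compared here, and its 24 h side entered the choice of the regions. The 24 h levels may lie low through that choice, which the tests below do not correct. The mean level over the regions was 23.5%, 22.7% and 23.4% in the 4 d air libraries, against 25.02%, 27.2% and 25.9% in the 24 h air libraries, with no overlap and p = 0.1 (0.2 adjusted) in the exact permutation test. Region by region, 4 d minus 24 h was -2.51 points at the median (quartiles -7.28 and 1.00), lower in 4015 regions and higher in 1861. Of 5866 regions tested, 2 were called lower at 4 d and 0 higher, which is 0.0341% and 0%, and at an unadjusted p under 0.05 there were 578 lower and 65 higher. Embryos and coleoptiles are different organs here too.

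The 2 regions called between 24 h and 4 d were named after their values were seen. On chromosome 3 (31261714 to 31261758) the level was 0%, 1.92% and 3.99% in 4 d air, against 41.3%, 28.6% and 22.8% in 24 h air, and the dry seed had 75.2%, 72.9% and 71.3%. On chromosome 7 (8056030 to 8056102) it was 36.5%, 33.5% and 31.7% in 4 d air, against 52.6%, 54.5% and 48.7% in 24 h air, and the dry seed had 66.8%, 73.9% and 73.6%. The groups do not overlap in either, and both had an adjusted p of 0.0498 in the quasi-binomial model. The number of such calls was 0 with a coverage minimum of 5 or 1 reads, with the spread estimated from those groups only, and without either of 4 d air library 1 or 2 or 24 h air library 1 or 2. Without 4 d air library 3 it was 1, in a region other than these 2. Without 24 h air library 3 it was 2, of which 1 was among these 2.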

How the data were processed

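MethylC-seq data of 18 rice libraries in 6 groups of 3 were used as deposited, with each library grouped by its title. Per the file headers, the deposited table gives a total read count, a methylated value and a percent per region and library. The deposited methylated values are not whole and were treated as estimated counts and rounded. The deposited percent is written as 0 where the total count is 0, so such entries were treated as missing. Aligner, region caller, filters and build: not given in the sources used here. Columns of per-library values left unused numbered 0.

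The regions, lists and tests were chosen with earlier results of these data known. A library entered the test of a region only with 10 reads or more there, and each group needed at least 2 such libraries. The quasi-binomial model had a term per group and a dispersion of 1 or above, with Benjamini-Hochberg adjustment over all tested regions. It was tested on simulated data. Named regions were the 8 largest falls, rises of 10 points or more, the 5 smallest differences from 80% or more, the 3 longest and the largest fall per chromosome. Gene lists were not run without a build. Same-numbered libraries did not deviate together, so the replicate number was not used as a pairing. Libraries of a group differed by more than the sampling noise of independent reads, with a chi-square averaged over regions of 2.92 to 3.12 in 4 d air and 9.89 to 11.0 in the dry seed. Alternatives were coverage minimums, limma, other bins, the replicate block and leaving out each library. Python 3.11.15, numpy 2.4.6, pandas 2.3.3, scipy 1.17.1, R 4.3.3 and limma 3.58.1 were used.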

Additional observations from a re-analysis of the deposited data

How the results depend on the processing

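The direction of the fall held under the alternatives run. The number of regions called lower in 4 d air lay between 5468 (spread from the compared groups alone) and 5778 (coverage minimum of 1 read), and between 5566 and 5718 with 1 library left out, and 0 regions were called higher throughout. Of the 5741 calls, 5465 were shared with the spread from the compared groups alone, 5721 with limma, 5561 to 5576 without a 4 d air library, where fewer regions could be tested, and 5669 to 5698 without a dry seed library. The mean difference lay between -45.99 and -44.3 points with 1 library left out. With the replicate block, 5732 regions were called lower, of which 5729 were shared with the fit without it. Deviations of same-numbered libraries correlated at 0.0127, -0.00686 and -0.0184, so no pairing by number was seen in these regions. Whether the numbers pair the samples is not given in the labels.

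The comparison of 4 d with 24 h in air rested on few calls. Its 2 lower calls became 0 with a coverage minimum of 5 or 1 reads or with the spread from the compared groups alone, 4 with limma and 4 with the replicate block, of which 1 was shared each time, and 0 to 2 with 1 library left out. The fall of regions at 90% or more minus that of regions under 50% was -9.35, -0.750 and -2.30 points with bins from dry seed library 1, 2 and 3, reversed to 26.3 as a percent of the start, and lay between -18.4 and -11.8 with 1 library left out. The contrast by length became 1.45 for starts of 70 to 90%, and that by position became -0.0195 for the outermost 10% at each end and -0.344 for starts of 70 to 90%. The cause of these was not tested.

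Of 274 values of the 23 named regions, 259 kept direction and call. The reversals were in regions whose difference was not called. With the spread from the compared groups alone, the called named regions kept their call at larger adjusted p values. At 11:24548583-24548626 the adjusted p of the quasi-binomial model went from 6.82e-07 to 0.00187. Without 1 library the difference ran from -4.04 to 2.54 points at 11:10747885-10747950, from -8.58 to 6.14 at 2:8894883-8894926, from -9.13 to 5.94 at 6:24514461-24514498, from -6.84 to 10.7 at 4:7093458-7093497, from -7.53 to 4.99 at 12:1080519-1080637 and from -5.90 to 18.7 at 7:3917525-3917572. With a minimum of 20 reads it was -9.13 at 6:24514461-24514498. Depth limits the shortest regions most, since 4 d air libraries held a median of 45.3 reads in regions under 25 bp.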

Other observations

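Neighbouring regions resembled each other weakly at short range. The median gap between neighbours was 36169 bp, and 569 regions had a neighbour within 1000 bp. Over the 295 pairs of neighbours under 1000 bp apart, the Spearman correlation was 0.144 for the 4 d air level, 0.222 for the dry seed level and 0.191 for the difference. Over the 1004 pairs between 1000 and 10000 bp apart it was -0.0139 for the 4 d air level, 0.00703 for the dry seed level and 0.0233 for the difference. For the difference it was 0.0067 over the 3465 pairs between 10000 and 100000 bp apart and 0.0552 over the 1123 pairs farther apart. Neighbours share libraries, so these are descriptions without a test.

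The regions overlapped the other tables unequally. The re-aeration table, whose regions differ between nitrogen-grown coleoptiles and those given air again, shared 732 regions, or 12.4% of the dry seed regions and 81.2% of its own 902. In these, the median level was 13.7% in 4 d air and 69.9% in the dry seed, with a median difference of -52.7 points, against -44.0 points in the rest. Of these, 99.7% of the tested regions were called lower, against 97.5% in the rest. The table comparing 4 d air with 4 d nitrogen shared 19 regions, or 0.322% of the dry seed regions and 0.892% of its own 2131. There the median level was 40.5% in 4 d air and 78.9% in the dry seed, with a median difference of -38.2 points against -45.2 in the rest. All 19 were called lower, beside 97.8% of the rest. By the name of that table, 4 d air values entered the choice of its regions. The values of these 19 are therefore description.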
